A study of Homo sapiens with 6 samples.

Results

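The genes described here encode the machinery that builds ribosomes in the nucleolus, and they were chosen by name as 39 genes of ribosome biogenesis. Of the 39, 38 were matched by gene ID and symbol among 62111 listed genes, and 37 averaged at least 1 TPM and were tested. BOP1 was not matched by its ID and is not analysed here, and NOP2 was matched but lay under 1 TPM. TPM (transcripts per 1000000) are reads divided by gene length and scaled to the same total in every library. The study compared 3 libraries of K562, a human chronic myeloid leukaemia line, with wild-type SF3B1 (WT) and 3 libraries of K562 with SF3B1-K700E (K700E). SF3B1 is the subunit of the U2 snRNP that holds the intron branch point, and K700E is a recurrent substitution in blood cancers. The labels do not say how the substitution was introduced, whether the K700E cells are 1 clone, or whether replicates were separate cultures, so the tests cover only the variation among these 6 libraries.

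Ribosome biogenesis begins with RNA polymerase I, which transcribes the long precursor of the ribosomal RNAs. Small nucleolar ribonucleoproteins (snoRNPs) then methylate and pseudouridylate it, and ordered sets of assembly factors cut, fold and export the small and large subunits. Genes of these factors are classic targets of the transcription factor MYC, which binds the E-box CACGTG, whereas mRNAs of ribosomal proteins are known for a pyrimidine tract at their 5′ end.

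The E-box was frequent in these promoters. The list was described as MYC-driven and without ribosomal proteins when it was chosen, so the contrasts below are not independent of that choice. RefSeq windows of 250 bases before to 50 bases after a transcription start (GRCh38.p14) were found for 32 of the 39 genes. Of the 32, 15 (46.9%) held CACGTG, which reads the same on both strands, against 12.8% of the 10027 tested genes with a window and 5 of 69 ribosomal protein genes (7.25%). In all 6 motifs were searched, on both strands. CACGCG occurred in 34.4% of the biogenesis genes and 22.7% of tested genes, TCTCGCG in 12.5% and 7.72%, GGAAG in 87.5% and 82.0%, and TATAAA in 3.13% and 8.12%. TCTCGCG followed by AGA, a longer motif that contains it, occurred in 1 biogenesis gene and in 1.04% of tested genes. Of the 16 CACGTG sites, 14 (87.5%) began within 40 bases of the start, against 29.8% of the 1545 sites of tested genes, a distance chosen after the sites were seen. A match describes letters and is no evidence of binding. To show the site at different steps of the pathway, 6 are given with the E-box in capitals and 12 bases on each side, 5′ to 3′ on the gene's strand.
FBL, chr19:39846356-39846385, minus strand: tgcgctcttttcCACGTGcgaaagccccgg
RRP9, chr3:51941892-51941921, minus strand: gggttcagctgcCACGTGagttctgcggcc
GAR1, chr4:109815781-109815810, plus strand: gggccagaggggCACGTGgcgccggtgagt
WDR43, chr2:28894658-28894687, plus strand: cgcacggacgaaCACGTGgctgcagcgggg
NOP14, chr4:2963374-2963403, minus strand: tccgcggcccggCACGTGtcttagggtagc
GNL3, chr3:52686026-52686055, plus strand: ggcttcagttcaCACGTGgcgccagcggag

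The start sites differed in letters from those of ribosomal protein genes, which the list was chosen to leave out. A run of 8 or more C or T within 10 bases of a RefSeq start occurred in 50 of 69 ribosomal protein genes (72.5%), in 13.3% of tested genes, and in 3 of the 32 biogenesis genes, FBL, NPM1 and DDX21. The length and the window were chosen after the sequences were seen. The 20 bases around a start are given for 3 ribosomal protein genes, for these 3 genes, and for the 4 tested genes whose libraries did not overlap between genotypes, with the run in capitals. RPL9 has no such run in the 20 bases given, but these end in C or T, so a run that continues past them is not shown. NPM1, DDX21 and RPL11 each have another start in the table without a run.
RPS23, chr5:82278345-82278364, minus strand: cggtgCTTCTCTCTTTCgct
RPL11, chr1:23691796-23691815, plus strand: gctccgCTTTCTCTTCCTgc
RPL9, chr4:39458913-39458932, minus strand: taatgacgacagacgttctt
NPM1, chr5:171387839-171387858, plus strand: agcctgcgTCCTTTCCCTgg
FBL, chr19:39846370-39846389, minus strand: cgcctgcgCTCTTTTCCacg
DDX21, chr10:68956160-68956179, plus strand: ggggaactaCCTCTTCCTCT
NHP2, chr5:178153876-178153895, minus strand: gatgacctggaagtgatgcc
NOP16, chr5:176388589-176388608, minus strand: ggagtttgttacacgaggtc
NOP14, chr4:2963397-2963416, minus strand: acgaggaagcggttccgcgg
NOP56, chr20:2652622-2652641, plus strand: cgctagccgcattgcgagcc

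Few facts of the whole series bear on these genes. Recovered reads came to between 104642332 and 136588117 per library, and each tested biogenesis gene held from 372 to 354667 reads. All 10 erythroid markers of K562 averaged over 1 TPM. None passed, but 3 were higher in K700E at an unadjusted p under 0.05, where the share over all genes gives 1.30 of 10. The same 3 were higher without overlap, as were 19.0% of all tested genes. They were ALAS2 at 748 ± 28.2 against 1174 ± 197 TPM, TFRC at 491 ± 33.3 against 839 ± 225 TPM and HBZ at 230 ± 62.6 against 492 ± 223 TPM. Of 12 markers of other lineages 11 were matched and 5 averaged at least 1 TPM, led by LYZ, at 116 ± 8.01 TPM in WT against 112 ± 56.3 TPM, and EPCAM, at 61.4 ± 17.8 against 56.6 ± 7.01 TPM. COL1A1 had the smallest p of the 5, at 1.89 ± 0.566 against 3.93 ± 0.992 TPM without overlap (limma adjusted p 0.145), ahead of NKG7 at 4.69 ± 2.17 against 3.49 ± 1.87 TPM. CD3E and COL3A1, under 1 TPM and not tested, were also higher without overlap, at 0.387 ± 0.0713 against 0.758 ± 0.370 TPM and 0.0231 ± 0.00365 against 0.225 ± 0.145 TPM. They held only 24 to 85 and 6 to 104 reads per library. The share of all tested genes that were higher without overlap, 19.0%, does not cover genes at so low a level. Here and throughout, values after "averaged" or "at" with ± are the mean and SD of 3 WT libraries, then of 3 K700E libraries. The 11 summed to between 181 and 198 TPM in WT and between 124 and 247 TPM in K700E, with MPO, ELANE and MS4A1 at or near 0, and the part of either marker list in the results was not tested. In bulk RNA, fewer cells expressing a gene and less RNA per cell cannot be told apart. The 2 genotypes were deposited in separate tables, so a difference in processing between the tables cannot be told apart from genotype.

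None of the 37 biogenesis genes differed between genotypes past the threshold, and their median stood slightly above that of all genes in K700E. At a limma adjusted p under 0.05 no gene was higher and none lower, where 1.15% of all 15493 tested genes were called higher and 0.232% lower. At an unadjusted p under 0.05 there were 3 of 37, all higher in K700E, against 16.5% of all genes in either direction (2018 of the 15493 higher and 545, or 3.52%, lower). Limma-voom on recovered reads gave 0 calls and 2 genes at an unadjusted p under 0.05. The log2 difference, taken on the log2(TPM + 1) scale as K700E minus WT, was above 0 for 34 of the 37 (69.3% of all genes), but for 20 with a trimmed-mean scaling and 22 with median-ratio scaling. The median of all genes stood at 0.13 and that of the biogenesis genes at 0.22, which is 0.09 above it. Of the 37, 29 lay above the median gene, as 50.0% of all genes do by definition.

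A single library held most of that shift. The biogenesis genes' median deviation from each gene's own mean, relative to the median gene, was 0.04, 0.01 and -0.05 in WT replicates 1, 2 and 3 and 0.17, -0.02 and -0.03 in the K700E replicates, on the log2 scale. K700E replicate 1 thus stood alone, and it was the highest of the 6 libraries in 28 of the 37 genes, against 32.8% of all tested genes. Without it the biogenesis genes lay 0.02 above the median gene, and 21 of 37 lay above it. Without K700E replicate 2 or 3 the value was 0.13. The count at an unadjusted p under 0.05 moved both ways, to 8 of 37 without WT replicate 1 (24.3% of all genes), 7 without WT replicate 2 (14.8%), 1 without WT replicate 3 (9.44%), 0 without K700E replicate 1 (12.9%) and 2 without K700E replicate 2 (12.4%). Leaving out 1 library moved the log2 difference by over 1.5 times, or past 0, in 33 of the 37 genes, the others being NHP2, NOP14, NOP16 and NOP56.

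The size of any difference was bounded. The 95% interval of the log2 difference lay wholly below 1, a 2-fold rise, for 34 of the 37 genes, the exceptions being NOC4L, NOC3L and MYBBP1A. The interval spanned 0 for 34 genes. The limma adjusted p ran from 0.197 (NHP2) to 0.849 (NOC4L).

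**Figure D1:**
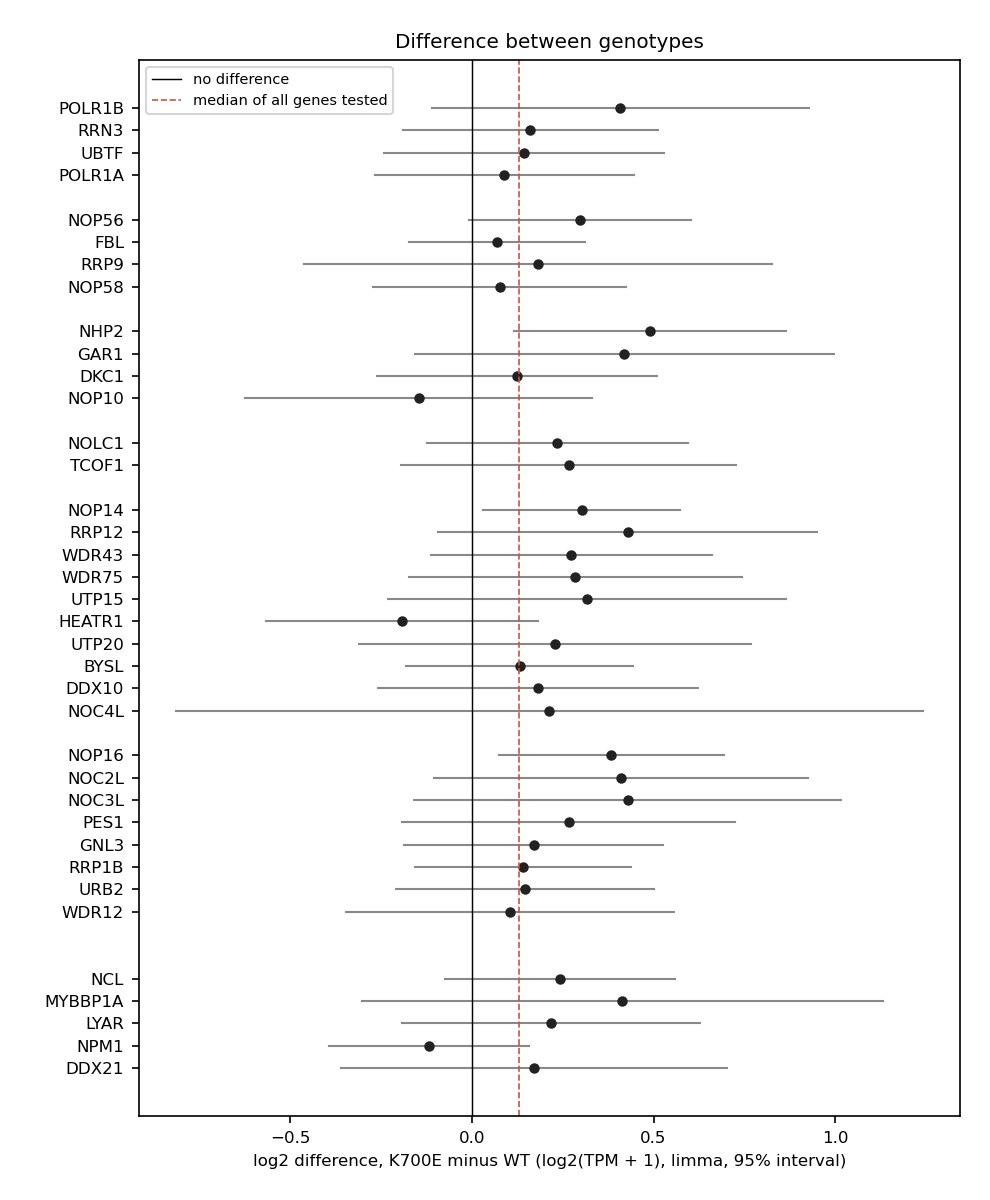
Log2 difference of each of the 37 tested genes, K700E minus WT, from limma on log2(TPM + 1), with its 95% interval, grouped by role. The dashed line marks the median of all tested genes at 0.13, and only NHP2, NOP16 and NOP14 have an interval above 0.

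RNA polymerase I genes were low to moderate in level and none passed the test. For the core subunit gene POLR1B the WT libraries measured 22.4, 13.5 and 18.1 TPM and the K700E libraries 29.3, 22.9 and 20.0 TPM. WT replicate 1 exceeded K700E replicate 3, so the groups overlapped, and the log2 difference was 0.41 (SE 0.22, limma adjusted p 0.416). For RRN3, which recruits the polymerase to its promoter, the WT libraries measured 27.0, 22.4 and 23.6 TPM and the K700E libraries 29.7, 28.5 and 23.8 TPM. These groups overlapped too, with a log2 difference of 0.16 (SE 0.15, limma adjusted p 0.647). RRN3 has 4 pseudogenes in the tables that summed to 2.47 to 3.95 TPM per library, so its reads may be split with close copies. UBTF, which shapes rDNA chromatin, averaged 61.7 ± 10.1 TPM against 67.9 ± 8.07 TPM. POLR1A, the largest subunit, averaged 15.7 ± 1.84 against 16.7 ± 1.57 TPM.

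Of the box C/D snoRNP genes, whose particles guide 2′-O-methylation, NOP56 had groups that did not overlap. NOP56 (GRCh37 chromosome 20, 2633278 to 2639039, plus strand) encodes a scaffold of the particle. Its WT libraries measured 260, 297 and 267 TPM and its K700E libraries 384, 309 and 324 TPM. Every K700E library exceeded every WT library, with a log2 difference of 0.30 (SE 0.13, limma adjusted p 0.315). For fibrillarin (FBL), the methyltransferase, the WT libraries measured 860, 942 and 940 TPM and the K700E libraries 992, 945 and 938 TPM. The groups overlapped, and the log2 difference was 0.07 (SE 0.10, limma adjusted p 0.786). RRP9 of the U3 snoRNP ranged from 24.0 to 51.8 TPM in WT, which covered the K700E range of 38.1 to 48.1 TPM. NOP58, the partner of NOP56, averaged 113 ± 5.85 against 121 ± 20.3 TPM.

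The box H/ACA snoRNP genes, whose particles guide pseudouridylation and also bind telomerase RNA, spread on both sides of 0. NHP2 (GRCh37 chromosome 5, 177576464 to 177580886, minus strand) encodes a core protein. Its WT libraries measured 71.9, 99.4 and 94.5 TPM and its K700E libraries 134, 113 and 125 TPM. The groups did not overlap, and the log2 difference of 0.49 (SE 0.16, limma adjusted p 0.197) was the largest of the 37. Of its exonic bases 48.2% are shared with RMND5B on the other strand, and the strand setting of the counts is not given in the sources used here. RMND5B averaged 33.7 ± 5.15 against 36.9 ± 2.34 TPM, and the part of shared reads was not tested. For GAR1, another core protein, the WT libraries measured 109, 69.4 and 90.6 TPM and the K700E libraries 157, 120 and 87.8 TPM. K700E replicate 3 lay below 2 WT libraries, and the log2 difference was 0.42 (SE 0.25, limma adjusted p 0.451). DKC1, the pseudouridine synthase, averaged 217 ± 45.2 against 233 ± 9.97 TPM. NOP10 had a log2 difference of -0.15, which was 0.07 without K700E replicate 2, its lowest library at 347 TPM.

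The scaffolds that link snoRNPs and RNA polymerase I did not separate the genotypes. For NOLC1 the WT libraries measured 158, 129 and 140 TPM and the K700E libraries 198, 159 and 147 TPM. For TCOF1, the Treacher Collins syndrome gene, they measured 40.6, 68.1 and 60.0 TPM and 66.8, 63.9 and 68.5 TPM. In both genes the groups overlapped, with log2 differences of 0.24 and 0.27 and limma adjusted p of 0.497 and 0.549. Without WT replicate 1 the difference of TCOF1 was 0.05.

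Among the 10 small subunit genes, NOP14 had groups that did not overlap. NOP14 (GRCh37 chromosome 4, 2939663 to 2965133, minus strand) encodes a component of the small subunit processome. Its WT libraries measured 53.3, 58.7 and 54.5 TPM and its K700E libraries 68.0, 70.0 and 67.9 TPM. The libraries lay close together within each group, and the log2 difference was 0.30 (SE 0.12, limma adjusted p 0.254). NOP14-AS1 on the other strand, with which it shares 461 of its 3556 exonic bases, averaged 2.62 ± 0.282 against 3.83 ± 0.544 TPM, also without overlap. For RRP12, an export factor, the WT libraries measured 19.1, 32.9 and 28.2 TPM and the K700E libraries 41.9, 30.3 and 35.1 TPM. K700E replicate 2 lay below WT replicate 2, and the log2 difference was 0.43 (SE 0.22, limma adjusted p 0.396), or 0.21 without WT replicate 1.

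The other small subunit genes gave smaller or less even differences, all with overlap. WDR43, WDR75 and UTP15, of the t-UTP group that acts earliest on the nascent transcript, had log2 differences of 0.27, 0.28 and 0.32. HEATR1 of the same group stood the other way, at 35.5 ± 4.22 against 31.0 ± 4.50 TPM (log2 difference -0.19, limma adjusted p 0.598). Its exons share 23.8% of their bases with LGALS8 on the other strand, which averaged 46.2 ± 4.06 against 46.9 ± 2.52 TPM. UTP20 measured 13.6 TPM in K700E replicate 1 and from 7.20 to 8.69 TPM in the other libraries. BYSL and the helicase gene DDX10 had log2 differences of 0.13 and 0.18. NOC4L had the largest SE of the 37, 0.44, since WT libraries ranged from 5.19 to 22.5 TPM and K700E libraries from 12.6 to 15.9 TPM.

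**Figure D2:**
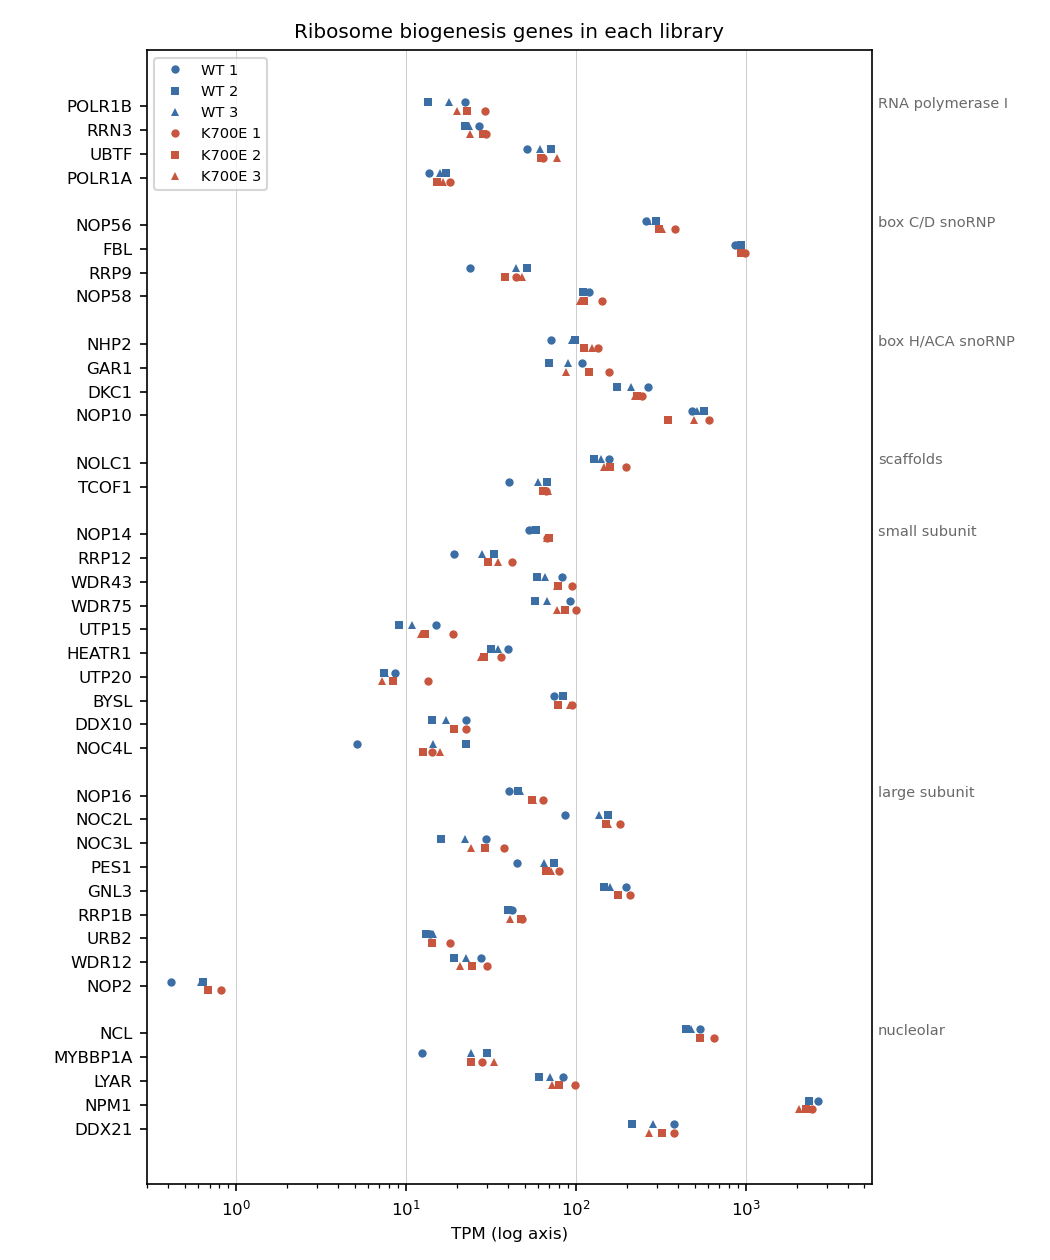
TPM of each of the 38 matched genes in each library on a log axis, WT in blue and K700E in red, with a symbol for each replicate number. Most genes overlap between the genotypes, and in NOC4L, MYBBP1A and RRP9 WT replicate 1 lies well below the other WT libraries.

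Of the large subunit genes NOP16 had groups that did not overlap. NOP16 (GRCh37 chromosome 5, 175810941 to 175815928, minus strand) encodes a nucleolar assembly factor. Its WT libraries measured 40.5, 45.5 and 47.3 TPM and its K700E libraries 63.9, 55.2 and 55.7 TPM, a log2 difference of 0.38 (SE 0.13, limma adjusted p 0.217). It shares 9.87% of its exonic bases with HIGD2A on the other strand, which averaged 214 ± 46.2 against 155 ± 22.6 TPM. For NOC2L, a pre-60S factor, the WT libraries measured 86.8, 154 and 136 TPM and the K700E libraries 183, 151 and 155 TPM. WT replicate 2 exceeded K700E replicate 2, and the log2 difference was 0.41 (SE 0.22, limma adjusted p 0.412). Without WT replicate 1 it was 0.165. Its partner NOC3L averaged 22.6 ± 6.73 against 30.4 ± 6.84 TPM. PES1 and WDR12, which form the PeBoW complex with BOP1, had log2 differences of 0.27 and 0.11, and that of PES1 was 0.06 without WT replicate 1. GNL3 (nucleostemin), a GTPase high in proliferating cells, averaged 167 ± 27.0 against 187 ± 18.6 TPM. RRP1B and URB2 had log2 differences of 0.14 and 0.15.

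NOP2, a cytosine methyltransferase of the large subunit rRNA, was listed far below its partners. Its WT libraries measured 0.418, 0.643 and 0.622 TPM and its K700E libraries 0.813, 0.690 and 0.689 TPM, from 65 to 133 reads. The groups did not overlap, and with no filter on low values its log2 difference was 0.15 (SE 0.12, limma adjusted p 0.666). By the deposited exons, 70.9% of its 3581 exonic bases also belong to ENSG00000285238, a longer gene on the same strand (GRCh37 chromosome 12, 6666052 to 6716533) that held from 2 to 7 reads per library. How reads in exons of both genes were assigned is not given in the sources used here, so the level of NOP2 is uncertain.

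The abundant nucleolar proteins did not pass either. Nucleophosmin (NPM1), a histone chaperone of the granular component, had the highest level of the 38 genes. Its WT libraries measured 2653, 2354 and 2350 TPM and its K700E libraries 2472, 2262 and 2051 TPM. The groups overlapped, with a log2 difference of -0.12 (95% interval -0.39 to 0.16, limma adjusted p 0.671). NPM1 has 49 pseudogenes in the tables, 23 of them above 0, whose sum of 26.5 to 40.6 TPM came mostly from NPM1P27. For nucleolin (NCL), which binds nascent rRNA, the WT libraries measured 541, 444 and 474 TPM and the K700E libraries 653, 538 and 536 TPM. WT replicate 1 exceeded 2 K700E libraries, and the log2 difference was 0.24 (SE 0.14, limma adjusted p 0.428).

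The nucleolar regulators showed how far WT replicate 1 could lie from the other WT libraries. For MYBBP1A, which acts on rRNA transcription and p53, the WT libraries measured 12.4, 30.2 and 24.2 TPM and the K700E libraries 28.1, 24.3 and 33.0 TPM (log2 difference 0.41, SE 0.31, limma adjusted p 0.550). That difference was 0.06 without WT replicate 1 and 0.67 without WT replicate 2. For the helicase gene DDX21 they measured 380, 214 and 284 TPM and 381, 320 and 271 TPM. WT replicate 1 was the lowest WT library in the first gene and the highest in the second. LYAR averaged 72.1 ± 11.7 against 84.0 ± 13.7 TPM.

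Over all roles, 4 of the 37 tested genes (NHP2, NOP16, NOP14 and NOP56) had K700E libraries wholly above the WT libraries, against 19.0% of all tested genes. None had them wholly below, against 4.99%.

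Libraries of the same genotype differed among themselves along the base composition of the transcripts. All 15 tested biogenesis genes under 45% GC were higher in WT replicate 1 than in WT replicate 2, by a median of 0.49 on the log2 scale. All 9 genes over 55% GC were lower there, by a median log2 ratio of -0.78 that reached -2.11 in NOC4L. WT replicate 3 lay between the other WT libraries in 32 of the 37 genes, and in 75.9% of all tested genes. Across the 37 genes the rank correlation of GC content with the log2 ratio of WT replicate 1 to 2 was -0.90, and across 15103 tested genes -0.70. The K700E libraries showed a gradient of the same sign, with rank correlations of -0.76 and -0.45 (same 37 and 15103 genes) between GC content and the log2 ratio of replicate 1 to 3. K700E replicate 1 was the highest K700E library in 15 of 15 genes under 45% GC, 11 of 13 from 45 to 55% and 5 of 9 over 55%, and in 47.2% of all tested genes. In each correlation all points come from the same 2 libraries and are not independent.

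The corresponding correlation with the difference between genotypes was 0.14 across the 37 genes and -0.03 across the tested genes. The median log2 difference was 0.18, 0.15 and 0.27 for genes under 45%, from 45 to 55% and over 55% GC. After a correction on GC content in each library 0 of the 37 were called, their median again lay 0.09 above the median gene, and the smallest adjusted p was 0.0827 (NHP2).

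**Figure D3:**
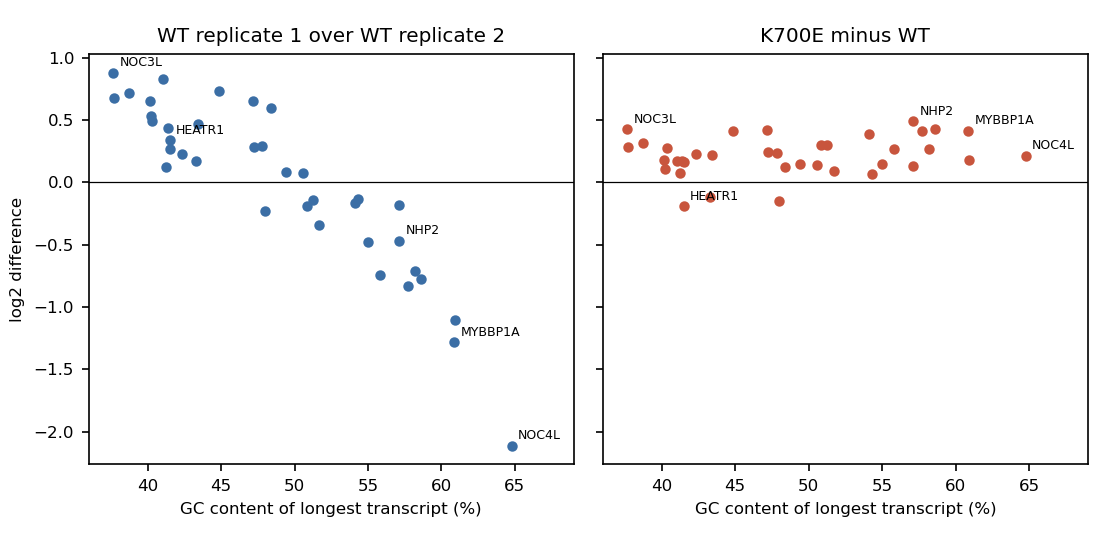
Log2 ratio of WT replicate 1 to WT replicate 2 (left) and log2 difference of K700E minus WT (right) against transcript GC content in percent, for the 37 tested genes. The left panel descends to NOC4L at -2.11 (rank correlation -0.90), and the right panel has a rank correlation of 0.14.

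The medians of the assembly factors and of the proteins they assemble stood on different sides of the median gene. Of 81 tested ribosomal protein genes 5 had a log2 difference above 0, and the median of the 81 was -0.50 from the median gene, while that of the biogenesis genes was 0.09. Without K700E replicate 1 these medians were -0.45 and 0.02, and 21 of the 37 biogenesis genes lay above the median gene. The 5 ribosomal protein genes above 0 were RPS26 (0.40), RPL17 (0.36), RPL7L1 (0.36), RPL39L (0.08) and RPL26L1 (0.04). The ribosomal protein list was drawn by symbol and so includes like-named genes such as RPL7L1, RPL39L and RPL26L1. None of the 81 passed, and 44 were lower at an unadjusted p under 0.05, against 3.52% of all genes. RPL9 and RPS23 had the smallest p, at 1257 ± 68.9 against 881 ± 31.5 TPM and 1273 ± 47.4 against 915 ± 24.5 TPM (limma adjusted p 0.0701 and 0.0770). The 3 biogenesis genes with a pyrimidine run at a start, NPM1, FBL and DDX21, had log2 differences of -0.12, 0.07 and 0.17.

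The summed level of the 38 genes was 7077, 6625 and 6688 TPM in the WT libraries and 7922, 6783 and 6659 TPM in the K700E libraries, with overlap. Ribosomal protein genes summed to 195218, 254662 and 223327 TPM in the WT libraries and 167235, 172687 and 174101 TPM in the K700E libraries, without overlap. Per 100 TPM of ribosomal protein mRNA the WT libraries held 3.07 ± 0.516 TPM of biogenesis genes and the K700E libraries 4.16 ± 0.499 TPM (SD, n = 3 each), and the libraries did not overlap. TPM are shares of a library, so a lower share of one class raises the others. With ribosomal protein and mitochondrial genome genes taken out and the rest rescaled, the median gene stood at 0.04, 31 of the 37 genes were above 0 and their median was 0.09 above the median gene.

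**Figure D4:**
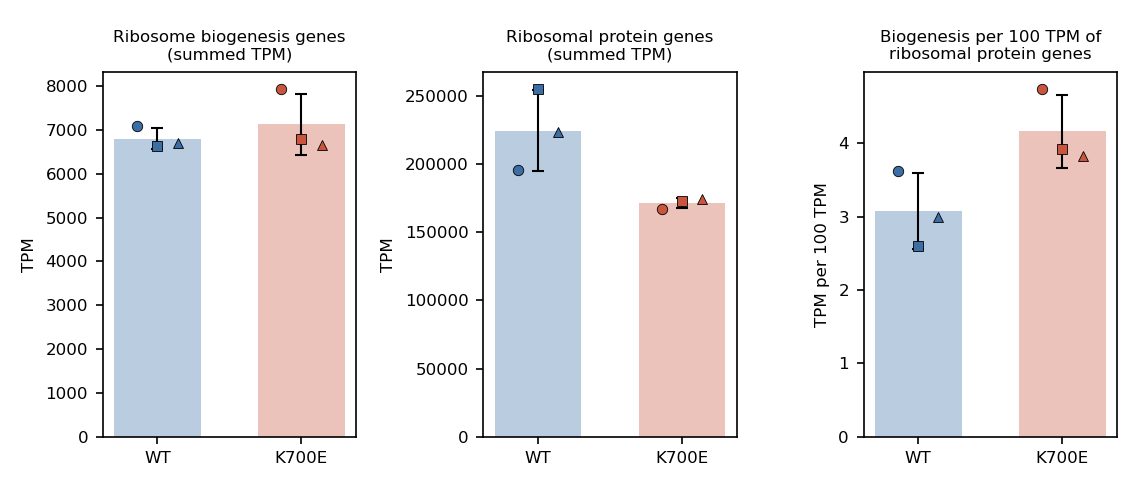
Summed TPM of the 38 biogenesis genes (left) and of the ribosomal protein genes (middle), and the first per 100 TPM of the second (right), as bars of the mean with SD (n = 3) and a point for each library. The sums of biogenesis genes overlap between genotypes, and the ratio is 2.60 to 3.63 in WT and 3.83 to 4.74 in K700E.

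Other genes of the pathway gave no call either, and their counts at an unadjusted p under 0.05 are set beside what the share over all genes (2018 of 15493 higher, 545 lower) gives for as many genes. Of 48 further small subunit genes tested 0 passed and 7 were higher unadjusted, where that share gives 6.25, and their median lay 0.09 above the median gene. PDCD11, a processome protein, averaged 35.6 ± 1.84 against 51.3 ± 5.84 TPM and BUD23, an 18S rRNA methyltransferase, 155 ± 10.4 against 208 ± 14.7 TPM (limma adjusted p 0.132 and 0.146). Of 50 further large subunit genes 0 passed, 6 were higher and 1 lower unadjusted, where the shares give 6.51 and 1.76, and their median lay 0.05 above. RBM28 averaged 13.2 ± 0.320 against 20.0 ± 1.29 TPM and EBNA1BP2 123 ± 6.63 against 178 ± 41.3 TPM (limma adjusted p 0.102 and 0.212). Of 16 further RNA polymerase I genes, including subunits shared with other polymerases, 0 passed, 2 were higher and 1 lower unadjusted (2.08 and 0.563 by those shares), and their median lay 0.07 above. POLR1C averaged 37.0 ± 0.849 against 50.3 ± 4.60 TPM and POLR2H 83.5 ± 5.09 against 104 ± 2.72 TPM.

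Of 11 further snoRNP genes 0 passed and 1 was higher unadjusted (1.43 by the share over all genes), SHQ1, a chaperone of DKC1, at 11.9 ± 2.14 against 18.2 ± 3.25 TPM (limma adjusted p 0.197). Of 27 exosome and RNase P/MRP genes 0 passed and 6 were higher unadjusted, where the share gives 3.52, with a median 0.03 above the median gene. The RNase P/MRP subunit genes RPP25 and POP5 had log2 differences of 1.25 (SE 0.26) and 0.62 (SE 0.15), with limma adjusted p of 0.0701 and 0.110. RPP25 averaged 6.23 ± 1.08 against 16.7 ± 5.82 TPM.

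MYC averaged 97.8 ± 14.1 TPM in WT and 127 ± 10.6 TPM in K700E, without overlap (log2 difference 0.38, SE 0.15, limma adjusted p 0.270). None of the 11 MYC network genes tested passed, and 2 were higher at an unadjusted p under 0.05, MYC and MLXIP (1.43 by the share over all genes), with a list median -0.09 from the median gene. That list pools MYC with MXD1, MXD3, MXD4, MXI1, MNT and MGA, among others, so its median is no measure of MYC activity. Of 25 other MYC targets tested 0 passed and 2 were higher unadjusted, where the share gives 3.26, and their median lay 0.05 above the median gene. Biogenesis genes with CACGTG in the promoter window (14 tested) had a median log2 difference of 0.22 and those without it (17 tested) 0.21.

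**Figure D5:**
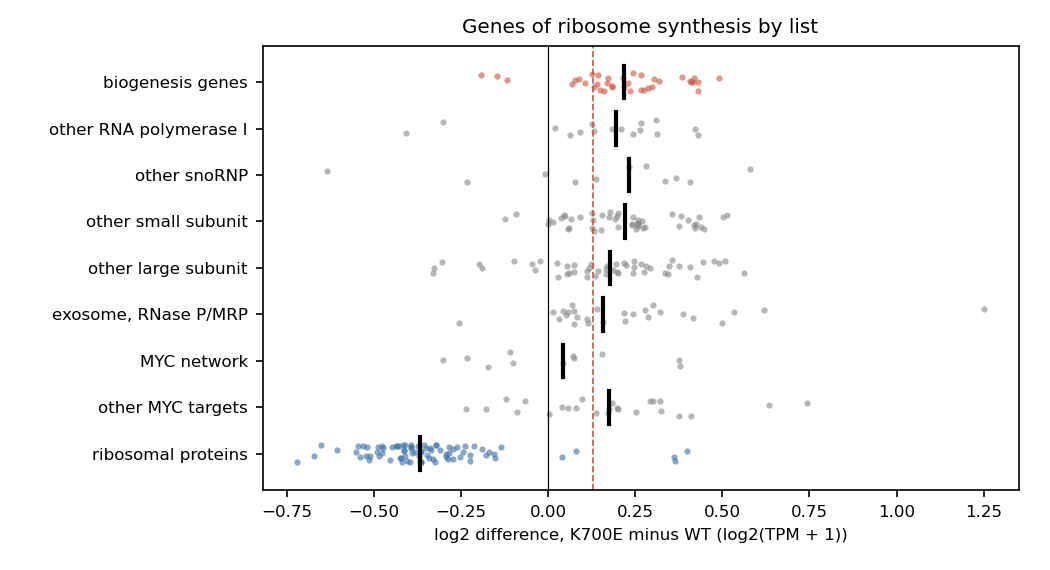
Log2 difference of each tested gene, K700E minus WT on the log2(TPM + 1) scale, in the biogenesis list, the other lists of the pathway and the ribosomal proteins, with list medians and, dashed, the median of all tested genes at 0.13. Ribosomal proteins lie mostly below 0 (median -0.37) and biogenesis genes mostly above it (median 0.22).

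When ribosome assembly fails, RPL5 and RPL11 bind MDM2 and p53 accumulates, a response that K562 cells, which lack functional p53, report poorly. Of the 5 genes of this arm 0 passed, 1 was higher and 2 lower at an unadjusted p under 0.05, where the shares over all genes give 0.651 and 0.176. The 2 lower genes, RPL5 and RPL11, are ribosomal protein genes already counted among the 44 above. RPL5 averaged 4836 ± 359 against 3673 ± 127 TPM and CDKN1A, a p53 target with other inducers, 66.0 ± 10.5 against 100.2 ± 12.7 TPM (limma adjusted p 0.132 and 0.143).

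Some biogenesis genes also carry snoRNAs in their bodies. By the deposited GRCh37 coordinates 6 of the 38 genes (NOP56, NOP58, NCL, GNL3, WDR43 and DKC1) held 20 small nucleolar RNA genes on their own strand. SNORD86 in NOP56, 86 bases long, had the most reads, up to 822 in a library at 80.9 to 214 TPM, and SNORA56 in DKC1 had none. All 129 bases of SNORA56 are also exonic bases of DKC1, and how reads in both genes were assigned is not given. The libraries were of mRNA, and whether these reads came from the snoRNAs or from RNA of the host genes was not tested.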

How the data were processed

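The authors deposited TPM per gene, in a table for WT and a table for K700E, each column summing to 1000000. Per the labels' protocols, a magnetic bead kit isolated the RNA, and libraries were of mRNA. Tools listed without roles in the submitters' processing notes are featureCounts 2.0.1, TopHat2 2.1, cutadapt 2.10 and DESeq2, with GRCh37. Per the file headers, WT columns end as STAR names its sorted output. Both tables hold the same gene IDs, and 94.4% matched a symbol.

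limma 3.58.1 (R 4.3.3; trend on mean level, genotype only, two-sided, Benjamini-Hochberg at 0.05) was fitted to log2(TPM + 1) of the 15493 genes averaging 1 TPM or more. An exact permutation test of 3 against 3 libraries cannot go below 0.1. TPM multiplied by gene length gave whole reads for 100% of genes above 0, within a tolerance of 0.01. GC content came from GENCODE transcripts (97.7% of tested genes), joined by gene ID. The trimmed-mean scaling (TMM) is an own version without weights. The fit was tested on simulated data in which genes were drawn independently, so the test does not cover shifts that genes share along GC content.

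The biogenesis genes and all lists were chosen with earlier results of these data known. Values in every library are given for the 2 genes of each role with the smallest p and for NCL, NPM1 and FBL. NOP2, DDX21, RRP9, UTP20 and NOC4L were given in more detail, the GC bands were set, and exon overlaps were examined after values were seen. From other lists up to 2 genes with the smallest p are named, with LYZ, EPCAM, HBZ, CD3E, COL3A1 and the markers near 0 chosen later. Promoter sequences are RefSeq's on GRCh38.p14; gene coordinates are the deposited ones on GRCh37. Python 3.11.15, pandas 2.3.3, scipy 1.17.1 and matplotlib 3.10.9 were used.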

Additional observations from a re-analysis of the deposited data

How the results depend on the processing

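In the 19 alternatives run, 0 of the 37 genes were called in either direction, and the median relative to the median gene lay above 0. That median, 0.09 with an SD of 0.09 between libraries, moved beyond this SD only with no filter on low values, where many more low genes enter the median gene. The median was then 0.187 over the same 37 genes, and 0.184 with NOP2, which enters when the filter is dropped. Leaving out 1 library it ran from 0.02 without K700E replicate 1 to 0.13. The replicate numbers did not pair the libraries evenly: deviations of same-numbered libraries correlated at 0.28, -0.19 and 0.30. The highest value of any pair was 0.43, for WT replicate 2 with K700E replicate 3. These values are not independent, since deviations were taken from each genotype's own mean. With the replicate number as a block 0 genes were called and the median was 0.09. Calls over all genes varied more: 214 became 464 with GC correction, 92 at a minimum of 5 TPM, 67 with the block, 125 without WT replicate 2, 98, 84 and 129 without K700E replicates 1, 2 and 3, and 0 without WT replicate 3 or with no filter (9.44% and 12.6% of genes at an unadjusted p under 0.05).

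Log2 differences above 0 turned to these values, none past the threshold. With median-ratio scaling: URB2 -0.0258, POLR1A -0.0851, NOP58 -0.107, WDR12 -0.0721, GNL3 -0.0141, BYSL -0.0507, DDX21 -0.0138, RRN3 -0.0170, UBTF -0.0387, FBL -0.115, RRP1B -0.0401 and DKC1 -0.0593. With TMM scaling: URB2 -0.0415, POLR1A -0.101, NOP58 -0.124, WDR12 -0.0882, RRP9 -0.0149, GNL3 -0.0307, BYSL -0.0673, DDX21 -0.0304, DDX10 -0.00924, RRN3 -0.0331, UBTF -0.0552, FBL -0.132, RRP1B -0.0564 and DKC1 -0.0760. With GC correction: URB2 -0.0110, POLR1A -0.0678, NOP58 -0.0596, WDR12 -0.0308, BYSL -0.0200, UBTF -0.0103, FBL -0.0853, RRP1B -0.0171 and DKC1 -0.0333. Without ribosomal protein and mitochondrial genome genes: POLR1A -0.00472, NOP58 -0.0227 and FBL -0.0304. These alternatives also moved the median gene, to -0.04, -0.05, -0.01 and 0.04.

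Leaving out 1 library, the log2 difference ran from -0.140 to 0.398 for RRP9 and -0.327 to 0.634 for NOC4L, both lowest without WT replicate 1. It ran from -0.0236 to 0.236 for WDR12, -0.0358 to 0.378 for DDX21, -0.0178 to 0.279 for DKC1, -0.0559 to 0.165 for NOP58, -0.0144 to 0.402 for UTP20 and -0.329 to 0.0734 for NOP10. Without a change of sign it ran from 0.06 to 0.67 for MYBBP1A, 0.165 to 0.576 for NOC2L, 0.05 to 0.42 for TCOF1 and 0.06 to 0.41 for PES1. GC correction together with leaving out WT replicate 1 or 3 was chosen after seeing the data, and gave 0 of the 37 called and 159 and 0 calls over all genes. Without WT replicate 1 it gave URB2 -0.0197, POLR1A -0.136, NOP58 -0.122, WDR12 -0.0164, RRP9 -0.0552, TCOF1 -0.00963, NOC4L -0.105, RRN3 -0.00162, UBTF -0.0534 and FBL -0.0666. Without WT replicate 3 it gave POLR1A -0.0670, NOP58 -0.0745, WDR12 -0.0310, BYSL -0.0291, UBTF -0.0372, FBL -0.0902, RRP1B -0.0278 and DKC1 -0.0475. The cause of these changes was not tested.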
